A study of Mus musculus with 2 samples.

Results

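The pentraxins and acute phase proteins described here are 10 genes: Mptx1, Apcs, Crp and Ptx3 of the pentraxin family, the serum amyloid A genes Saa1, Saa2 and Saa3, and Hp, Lbp and Orm1. Their members were taken as every probe set whose platform symbol is one of these names, which gave 13 probe sets for the 10 genes, of 45101 probe sets and 18193 singly named genes in all. The group was selected on a measured value, the difference of Mptx1 between these arrays, which was the largest of all genes, so the values below are a description. RNA came from scrapings of the colon mucosa of C57BL/6 mice after 3 days of 3% DSS (dextran sulfate sodium), a compound that damages the lining of the colon. Hif-2αΔIE mice were set against Hif-2αF/F mice, whose Epas1 gene, which encodes the hypoxia-inducible factor HIF-2α, is floxed on both alleles but intact. ΔIE is taken, from knowledge of the model, to mean loss of the gene from the intestinal epithelium, since no label explains it, and no label names the promoter that drives Cre recombinase. Mice of both genotypes received DSS, and no array of untreated mice was analysed here. The labels give ages of 6 to 8 weeks and the design text 7 weeks, with 5 ΔIE and 6 F/F mice, but there is 1 array per genotype and no label says whether RNA was pooled. The comparison asks which transcripts differ between these genotypes during DSS injury, with the loss of HIF-2α from the epithelium taken from the model. No test between genotypes was possible, and each difference compares these 2 arrays.

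Acute phase proteins are plasma and mucosal proteins whose production changes with injury or infection, mainly through interleukin-6 acting on STAT3 and interleukin-1 and TNF acting on NF-κB and C/EBP factors. The liver is the main source, but the gut epithelium, fat cells, macrophages and neutrophils also make several of them. Pentraxins are ring-shaped pattern recognition proteins that bind microbial surfaces and dying cells and recruit complement C1q and Fcγ receptors. Serum amyloid A proteins are small lipid-binding proteins that also bind retinol, and their genes are induced in the inflamed gut.

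The values are log2 levels of Affymetrix probe sets after robust multi-array averaging (RMA), and a difference is ΔIE minus F/F. A gene was represented by its brightest probe set and kept where the higher of its 2 values reached 6.11, the median over all probe sets, which left 11899 genes. The genotype labels were checked on control probe sets for Cre recombinase: the 4 of them read 7.86 to 10.01 on the ΔIE array, against 2.92 to 4.22 on the F/F array. The 41 other bacterial controls had medians of 3.14 on the ΔIE array and 3.11 on the F/F array. Epas1 itself read 11.77 on the ΔIE array and 11.90 on the F/F array by its brighter probe set. Its other probe set read 7.15 and 6.98 in the same order. Neither probe set shows loss of the gene, and their place relative to the deleted part was not determined. All 13 colon epithelium markers were kept, at 11.12 to 14.40 on the ΔIE array and 10.49 to 14.22 on the F/F array.

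Of the 10 genes, 8 were kept, and all 8 were lower on the ΔIE array. At least 2-fold lower were 6 of the 8: Mptx1, Saa3, Hp, Lbp, Ptx3 and Orm1. Among all genes kept, 5.30% were at least 2-fold lower and 1.15% at least 2-fold higher, and 46.5% lay below 0. At 1.5-fold all 8 were lower, against 10.6% of all genes, and at 3-fold Mptx1 and Saa3 were, against 1.49%. Mptx1 and Ptx3 reached the filter on the F/F array alone, so they had to differ to be counted. The other 6 were above it on both arrays, and 4 of those 6 were at least 2-fold lower, beside 4.28% lower and 1.03% higher by that much among the 11280 genes above the filter on both arrays. Orm1 lay just inside the 2-fold line, with a difference of -1.03, and Saa1 just outside it, with -0.97. The plasma pentraxin genes Apcs and Crp were below the filter on both arrays.

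**Figure D1:**
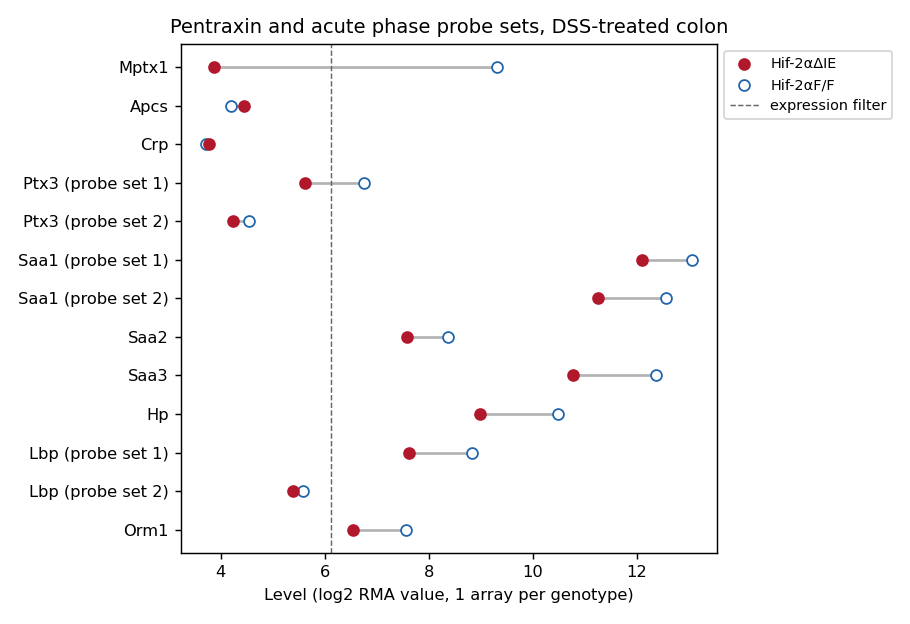
Level of each of the 13 probe sets (log2 RMA value, horizontal axis) on the Hif-2αΔIE array (filled red) and the Hif-2αF/F array (open blue); a grey line joins the 2 values of a probe set and the dashed line marks the filter at 6.11. The longest line is that of Mptx1, from which the group was chosen, at 3.87 on the ΔIE array and 9.31 on the F/F array.

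Mptx1 encodes mucosal pentraxin, a pentraxin made in the gut epithelium. Its single probe set read 3.87 on the ΔIE array, against 9.31 on the F/F array, a log2 difference of -5.43. The ΔIE value lies below the filter and among the values of the bacterial controls, which ran from 2.64 to 7.49 on that array, so no fold is given. This difference was the lowest of the 11899 genes, which is why the group was chosen. The next lowest was that of Tgm3, an epithelial transglutaminase gene, which read 7.34 on the ΔIE array and 11.15 on the F/F array. The 5 kept genes nearest to Mptx1 by their pair of values, measured as straight-line distance over the 2 arrays, were Khdc1a, Slc15a1, Tnfrsf11b, Csn1s1 and 2310079G19Rik. The distances ran from 1.92 to 2.25 on the log2 scale, but levels of different probe sets are not on one footing and the Mptx1 value on the ΔIE array is dim, so they only rank these genes. Khdc1a read 5.10 on the ΔIE array and 7.84 on the F/F array. Slc15a1, the gene of the intestinal peptide transporter PEPT1, read 4.37 on the ΔIE array and 7.19 on the F/F array.

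The colon epithelium markers, most of which differed by under 1.5-fold, had a median difference of 0.17, and 9 of the 13 were above 0. The cytokeratin genes Krt8 and Krt19 differed by -0.0071 and -0.0039, and the adhesion molecule gene Epcam by 0.09. The only marker of this list at 2-fold was Cdx2, a regulator of intestinal identity, at 11.51 on the ΔIE array and 10.49 on the F/F array. The Hox genes of the posterior gut did differ in the direction of Mptx1: all 7 kept of 9 measured were lower and 6 passed 2-fold (median -1.49). Of those 6, Hoxa10, Hoxa13 and Hoxd11 (-1.40, -1.75 and -1.49) reached the filter on the F/F array alone, so they had to be lower to be counted, while Hoxd10 (-1.44) was above it on both arrays. The largest of these differences were those of Hoxb13, at 7.94 on the ΔIE array and 10.76 on the F/F array, and of Hoxd13, at 7.72 and 10.54 in the same order. The log2 of the summed linear values of all 9 was 9.83 on the ΔIE array and 12.06 on the F/F array. Whether the part of the colon sampled bears on Mptx1 was not tested.

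The gene next most like Mptx1 in name, Mptx2, made by Paneth cells of the small intestine, had no probe set of its own symbol. In the RefSeq gene table of assembly GRCm38.p6, Crp and Apcs are neighbouring coding genes on chromosome 1, and Mptx2 and Mptx1 lie on the same chromosome, each beside an olfactory receptor gene. The sequence of the 250 bases before the start of Mptx1 is shown because no other gene had so large a difference. It is from RefSeq's table for GRCm38.p6, chr1:174330268-174330517, plus strand, 5′ to 3′, and capitals mark matches to the TATA box letters TATAAA, which here lie on the opposite strand.
Mptx1: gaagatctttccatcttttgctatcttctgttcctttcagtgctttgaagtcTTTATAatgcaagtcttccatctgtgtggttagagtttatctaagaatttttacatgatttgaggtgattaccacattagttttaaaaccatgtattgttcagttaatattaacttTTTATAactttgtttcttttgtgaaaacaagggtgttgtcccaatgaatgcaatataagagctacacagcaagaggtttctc
Aligned to the 250 bases before the start of Mptx2, it was identical at 197 of 228 aligned bases (86.4%). The core letters of a hypoxia response element, ACGTG or GCGTG on either strand, were not in this window. They were in 38.6% of all 32851 windows of the same length, ACGTG in 16.6% and GCGTG in 28.2%. None of the 7 members with a window in the table, which were Mptx1, Apcs, Crp, Ptx3, Saa1, Saa2 and Saa3, held either core.

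Apcs encodes serum amyloid P component, the main acute phase pentraxin of the mouse, and Crp encodes C-reactive protein, which is a minor one in this species. Apcs read 4.45 on the ΔIE array and 4.19 on the F/F array. Crp read 3.77 on the ΔIE array and 3.71 on the F/F array. Both lay within the range of the bacterial controls and below the filter, so no fold is given. Among the remaining pentraxins with a probe set, Ptx4 and the neuronal pentraxin genes Nptx1 and Nptx2 were below the filter on both arrays as well, at 3.54 to 5.44 on the ΔIE array and 3.40 to 5.26 on the F/F array.

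Ptx3 encodes the long pentraxin PTX3, which is made locally by fibroblasts, endothelial cells and myeloid cells and stored by neutrophils. Its brighter probe set read 5.62 on the ΔIE array, against 6.76 on the F/F array, a difference of -1.13. Both values lie within the range of the bacterial controls, and the ΔIE value is below the filter, so the size of this difference is uncertain. Its second probe set was below the filter on both arrays, at 4.24 on the ΔIE array and 4.55 on the F/F array. With both averaged, the gene no longer reached the filter. Tnfaip6, whose product TSG-6 acts with PTX3 in the hyaluronan matrix, was below the filter on both arrays too, at 3.84 on the ΔIE array and 4.62 on the F/F array. The markers of the cell types known to make PTX3 differed in the same direction. All 9 fibroblast markers were lower, with a median of -0.94, and Col1a1, Thy1 and Pdpn passed 2-fold (-1.19, -1.19 and -1.02). All 8 endothelial markers were lower, with a median of -0.72, and Lyve1 passed 2-fold (-1.07). Of these, Tie1 (5.77 on the ΔIE array and 6.36 on the F/F array) reached the filter on the F/F array alone, so it had to be lower to be counted. In a scraping, fewer cells of a type and less RNA per cell cannot be told apart, and the part of these cells in the Ptx3 values was not tested.

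The serum amyloid A genes had 4 probe sets, and all 4 were lower on the ΔIE array. Saa3, which is made by macrophages, fat cells and epithelium in the mouse, read 10.76 on the ΔIE array, against 12.37 on the F/F array. That is a difference of -1.60, or 3.04-fold. Saa1, one of the forms that circulates with high-density lipoprotein, read 12.09 on the ΔIE array and 13.07 on the F/F array by its brighter probe set, a 1.96-fold difference. Its second probe set read 11.24 on the ΔIE array and 12.56 on the F/F array, a 2.48-fold difference. Saa2, the close copy of Saa1, read 7.57 on the ΔIE array and 8.37 on the F/F array, a 1.74-fold difference.

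The 2 genes cannot be separated cleanly on this array. The second Saa1 probe set was designed, per the platform annotation, on a transcript that the RefSeq table gives to Saa2, and Saa1 and Saa2 are listed there as each other's older names. Assigned by accession, that probe set would stand for Saa2, with a difference of -1.31 in place of -0.80, and 7 of the 8 members kept would be at least 2-fold lower. This assignment was chosen after the values were seen. The identifiers of this probe set and of the Saa2 probe set also end in _s_at and _x_at, which mark probes that can match several transcripts. The fourth gene of the cluster, Saa4, was below the filter on both arrays, at 5.26 on the ΔIE array and 5.12 on the F/F array. By RefSeq order, Saa3, Saa4, Saa1 and Saa2 are neighbouring coding genes on chromosome 7.

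The windows of 250 bases before the starts of the Saa genes and Ptx3 are shown because these members were lower together and because each holds the C/EBP letters TTGCNNAA on one of its strands. Sequences are from RefSeq's GRCm38.p6 table, each 5′ to 3′ on the gene's own strand, with that match in capitals. Saa1 is chr7:46742981-46743230 (minus strand), Saa2 chr7:46751583-46751832 (plus), Saa3 chr7:46715677-46715926 (minus) and Ptx3 chr3:66219637-66219886 (plus).
Saa1: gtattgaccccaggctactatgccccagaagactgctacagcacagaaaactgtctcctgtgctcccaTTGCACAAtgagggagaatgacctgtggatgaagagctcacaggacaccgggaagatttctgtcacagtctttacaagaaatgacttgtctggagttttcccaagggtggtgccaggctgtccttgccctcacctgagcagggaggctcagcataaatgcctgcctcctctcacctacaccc
Saa2: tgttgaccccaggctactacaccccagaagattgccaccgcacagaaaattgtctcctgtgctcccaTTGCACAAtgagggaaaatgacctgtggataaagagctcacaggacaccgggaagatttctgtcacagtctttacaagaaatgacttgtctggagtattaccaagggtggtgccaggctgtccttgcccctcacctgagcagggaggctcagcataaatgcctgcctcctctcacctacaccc
Saa3: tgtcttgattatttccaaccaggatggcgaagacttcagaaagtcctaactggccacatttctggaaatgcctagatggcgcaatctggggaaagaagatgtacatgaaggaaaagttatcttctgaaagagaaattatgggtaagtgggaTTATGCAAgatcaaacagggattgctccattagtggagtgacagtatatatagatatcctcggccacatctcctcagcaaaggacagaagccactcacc
Ptx3: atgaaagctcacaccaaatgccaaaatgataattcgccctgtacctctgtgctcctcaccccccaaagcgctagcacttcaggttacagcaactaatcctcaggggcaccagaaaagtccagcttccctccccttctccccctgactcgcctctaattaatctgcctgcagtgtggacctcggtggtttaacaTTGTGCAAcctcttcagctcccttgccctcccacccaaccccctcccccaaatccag
The Saa1 and Saa2 windows were identical at 238 of 249 aligned bases (95.6%). The C/EBP letters were in these 4 of the 7 members' windows and in 9.56% of all windows. Saa1 and Saa2 hold the same match in near-identical windows, so they are not separate hits. The Mptx1 window holds none, and Hp, Lbp and Orm1 had no window. Enrichment was not tested. The STAT letters TTCNNNGAA, present in 7.02% of all windows, were in the Apcs window alone, and the TATA box letters, in 12.4% of all windows, were in those of Mptx1 and Crp. The NF-κB consensus, in 7.25% of all windows, was in none of the 7. A match is a run of letters and was not tested as a binding site.

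Hp encodes haptoglobin, the plasma carrier of free haemoglobin, which the mouse also makes in fat and stores in neutrophils. It read 8.99 on the ΔIE array, against 10.48 on the F/F array, a 2.81-fold difference. Lbp encodes the lipopolysaccharide binding protein that hands bacterial lipopolysaccharide to CD14. Its brighter probe set read 7.62 on the ΔIE array and 8.84 on the F/F array, a 2.32-fold difference. Its dimmer one was below the filter on both arrays, at 5.39 on the ΔIE array and 5.57 on the F/F array, and the average of the pair differed by -0.70 in place of -1.21. Orm1 encodes the plasma glycoprotein orosomucoid. It read 6.54 on the ΔIE array and 7.57 on the F/F array, a 2.04-fold difference. The ΔIE value lies within the range of the bacterial controls on that array, 2.64 to 7.49, so the size of this difference is uncertain. The Orm1 copies Orm2 and Orm3 were below the filter on both arrays, at 2.58 and 4.12 on the ΔIE array and 2.99 and 4.12 on the F/F array.

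Leaving Mptx1 aside, the 7 members kept differed by -1.60 (Saa3) to -0.80 (Saa2). There is no replicate to set this spread against. As a measure of error within an array, the 2 brightest probe sets of one gene were compared for the 5110 genes with a pair above the filter: the median gap between their differences was 0.10, and 95% of gaps were under 0.41. By that measure 8 of the 21 pairs among the 7 members lay farther apart than 0.41. The pairs of Saa2 with Saa3, Hp and Lbp are among them and rest on its -0.80, which becomes -1.31 by accession. Those of Ptx3 with Saa3 and of Orm1 with Saa3 and Hp rest on the Ptx3 and Orm1 differences, whose size is uncertain. Those of Saa1 with Saa3 and Hp rest on its brighter probe set, at -0.97, whereas its second probe set differed by -1.31. The second probe sets of Lbp and Ptx3, with differences of -0.18 and -0.30, were below the filter and did not enter. The measure does not cover the spread between mice. Saa3 and Hp lay 0.11 apart and Saa1 and Orm1 0.05 apart, whereas Saa3 and Saa2 lay 0.81 apart. In the order of all 11899 differences from the lowest, Saa3 stood at 164, Hp at 234, Lbp at 425, Ptx3 at 505, Orm1 at 601, Saa1 at 658 and Saa2 at 902.

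**Figure D2:**
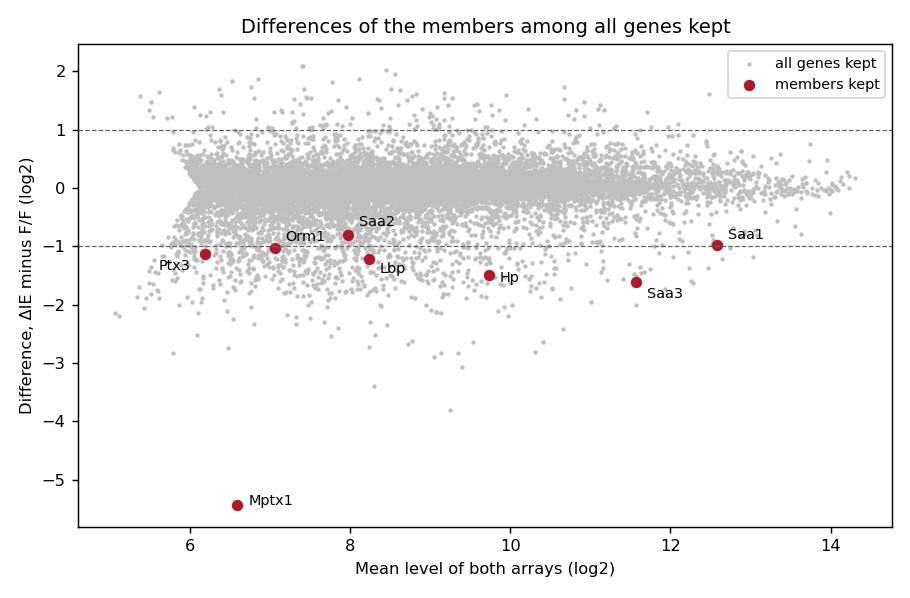
Difference between the arrays (ΔIE minus F/F, log2, vertical axis) against the mean level of both arrays (log2, horizontal axis) for the 11899 genes kept (grey) and the 8 members kept (red); dashed lines mark 2-fold. Mptx1 lies alone at -5.43, and the other 7 members lie between -1.60 and -0.80 at low as well as high levels.

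Other acute phase proteins were examined through a list of 26 genes known to be induced in the liver or the inflamed gut. Of these 20 had a probe set of their own symbol and 12 were kept. Lower were 10 of the 12, 8 of them at least 2-fold and none at least 2-fold higher, with a median of -1.24 against 0.02 over all genes kept. Steap4, a metalloreductase gene, read 8.88 on the ΔIE array and 11.07 on the F/F array, a 4.56-fold difference. Lcn2, the siderophore-binding lipocalin, read 10.82 and 12.33 in the same order, a 2.86-fold difference. Il1rn, the interleukin-1 receptor antagonist, was 2.85-fold lower, and its 3 probe sets differed by -1.51, -1.57 and -1.72. Cp, the copper-carrying ferroxidase ceruloplasmin, was 2.80-fold lower, and its other probe sets were lower too. Serpina1b, an alpha-1 antitrypsin gene with near-identical copies that its probe sets may not separate, was 3.41-fold lower. Its ΔIE value, 6.98, lies within the range of the bacterial controls, so the size of this difference is uncertain. Lrg1, Serpina3n and Cd14 were 2.44-fold, 2.28-fold and 2.06-fold lower. The metallothionein genes did not move together: Mt1 differed by 0.72 and Mt2 by -0.43.

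Several products of the liver were below the filter. The fibrinogen genes Fga, Fgb and Fgg, hemopexin (Hpx), Itih3, Itih4, A2m and hepcidin (Hamp) were the 8 genes of that list below the filter on both arrays. Of 8 hepatocyte markers, 5 were below it on both arrays as well: Alb, Ahsg, Hpx, Tdo2 and Cyp7a1. Alb, the albumin gene, read 5.25 on the ΔIE array and 4.98 on the F/F array. Apoa2, Tat and Cyp2e1 were kept, with differences of -0.11, -0.09 and 0.75. With the filter removed, the median of the acute phase list was -0.42 in place of -1.24, over all 20 genes.

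The cytokines that drive the acute phase response differed in the same direction. All 7 inducing cytokine genes kept, of 8 measured, were lower on the ΔIE array, and 4 passed 2-fold (median -1.27). Il1b read 8.79 on the ΔIE array and 10.90 on the F/F array, a 4.32-fold difference. Il6 read 5.05 on the ΔIE array and 7.00 on the F/F array, and it reached the filter on the F/F array alone. Il17a was 2.93-fold lower and Osm, the gene of the interleukin-6 relative oncostatin M, 2.41-fold lower. On the ΔIE array they read 6.88 and 6.55, within the range of the bacterial controls, so the size of these differences is uncertain. Tnf, Il11 and Lif differed by -0.72, -0.79 and -0.15.

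Receptors and signalling components differed less. Of 12 receptor genes for these cytokines, 10 were lower and 1 was at least 2-fold lower, with a median of -0.54. That gene was Osmr, the oncostatin M receptor, at 8.20 on the ΔIE array and 9.68 on the F/F array, while Il22ra1 and Il10rb, which together form the interleukin-22 receptor, differed by -0.02 and 0.10. Of 11 transcription factor and inhibitor genes, 9 were lower and 2 at least 2-fold lower, with a median of -0.30. Socs3, the feedback inhibitor that STAT3 induces, was 2.26-fold lower and agreed over its 3 probe sets (-1.18, -1.09 and -1.16). Cebpd read 9.45 on the ΔIE array and 10.47 on the F/F array, and Cebpb 10.01 and 10.92 in the same order, differences of -1.02 and -0.91, and the average over the Cebpd probe sets differed by -0.75. Cebpa and Hnf4a, factors of hepatic and intestinal differentiation, differed by 0.13 and 0.33, and Stat3 and Rela by -0.30 and -0.28. Whether the size of the difference depends on the role in the pathway was not tested.

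The genes of receptors and partners that bind the proteins were lower throughout. All 14 kept of 15 measured were below 0 and 7 were at least 2-fold lower, with a median of -0.90. Fpr2, a formyl peptide receptor that serum amyloid A binds, read 9.05 on the ΔIE array and 10.70 on the F/F array, a 3.13-fold difference. The pentraxin-binding Fcγ receptor genes Fcgr1, Fcgr4, Fcgr3 and Fcgr2b were 2.69-fold, 2.42-fold, 2.39-fold and 2.09-fold lower. Fcgr1 read 6.84 on the ΔIE array, within the range of the bacterial controls, so the size of its difference is uncertain. With probe sets averaged, Fcgr1 differed by -0.92 in place of -1.43 and Fcgr2b by -0.77 in place of -1.06, both under 2-fold, and without _s_at and _x_at probe sets Fcgr2b differed by -0.72. The complement genes C1qa, C1qb and C1qc differed by -0.69, -1.02 and -0.77. Cd14, whose product takes lipopolysaccharide from the Lbp protein, differed by -1.04, and Ly96 and Tlr4 differed by -0.30 and -0.49. Cd163, the scavenger receptor for haptoglobin bound to haemoglobin, differed by -0.26, so it did not follow Hp at 2-fold.

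**Figure D3:**
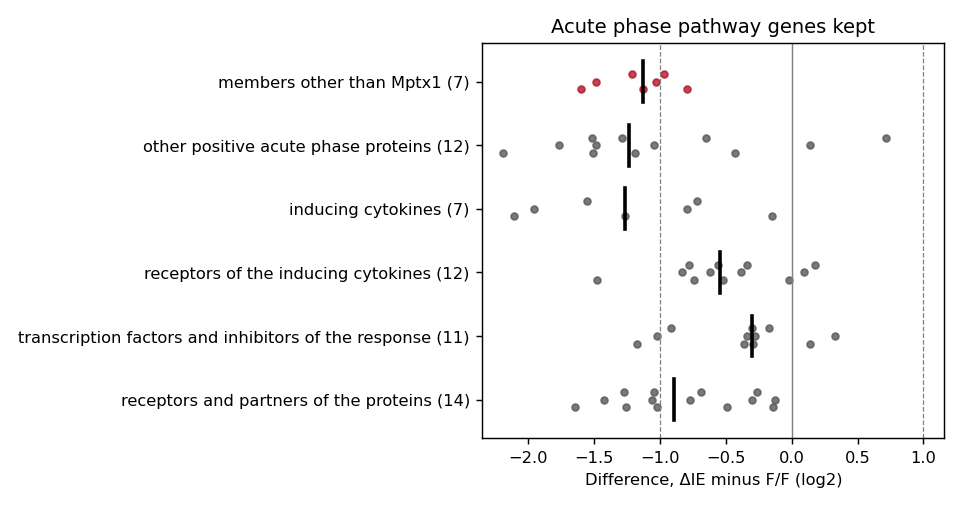
Difference between the arrays (ΔIE minus F/F, log2) of each gene kept, by list, with the number of genes in brackets; the black bar is the list's median, the solid line marks 0 and dashed lines mark 2-fold. The 7 members other than Mptx1 (red) lie wholly below 0, like the inducing cytokines and the binding receptors, while the signalling genes lie nearer 0.

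Markers of leukocytes differed on the same arrays, and most of the Fcγ receptor, Fpr2 and Cd14 transcripts are known from such cells. All 11 neutrophil markers kept, of 13 measured, were lower and 9 passed 2-fold (median -1.56). The 8 largest of these differences, of Camp, Stfa2l1, Trem1, Csf3r, Ngp, Mmp9, Cxcr2 and Mmp8, ran from -1.87 to -1.46. The defining neutrophil genes S100a8 and S100a9 read 13.22 and 13.24 on the ΔIE array, against 13.88 and 14.03 on the F/F array, while the precursor granule genes Elane and Mpo were below the filter on both. All 12 macrophage and monocyte markers were lower, 7 at least 2-fold, with a median of -1.14. Those 7 were Clec7a, Itgam, Ccr2, Fcgr1, Tyrobp, Cd68 and Lyz2, at -1.61 to -1.10, and Itgam reached the filter on the F/F array alone. The log2 of the summed linear values was 14.77 on the ΔIE array and 15.72 on the F/F array for neutrophil markers, and 12.77 and 13.89 in the same order for macrophage markers. The part of these cells in the values of Hp, Saa3, Lbp and Ptx3 was not tested. Squamous epithelium markers, of a tissue that begins at the anal end of the gut, had 8 of 9 below 0 with a median of -1.21. Of these Krt13, Krt14, Trp63, Krt5, Krt6a, Krt1 and Krt10 passed 2-fold, at -1.71 to -1.06, but Krt1 reached the filter on the F/F array alone, and Trp63 differed by -0.72 in place of -1.55 with probe sets averaged. The squamous marker that went the other way was Lor, at 6.16 on the ΔIE array and 5.56 on the F/F array. It reached the filter on the ΔIE array alone. All 5 B cell markers were lower and passed 2-fold, with a median of -1.88: Ms4a1 (-2.68), Cr2 (-2.15, above the filter on the F/F array alone), Cd79b, Cd22 and Cd79a.

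Fat, another known source of Saa3, Hp and Orm1 in the mouse, went the other way. All 8 adipocyte markers kept, of 9 measured, were higher on the ΔIE array, none at 2-fold, with a median of 0.75. The largest differences were those of Retn, Pck1 and Cidec (0.99, 0.94 and 0.90). Adipoq, the adiponectin gene, read 9.82 on the ΔIE array and 9.02 on the F/F array. The summed linear values of the adipocyte markers came to 13.04 on the ΔIE array and 12.36 on the F/F array (log2). The members kept and the fat markers differed in opposite directions on these arrays. The part of fat in the values of Saa3, Hp and Orm1 was not tested.

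**Figure D4:**
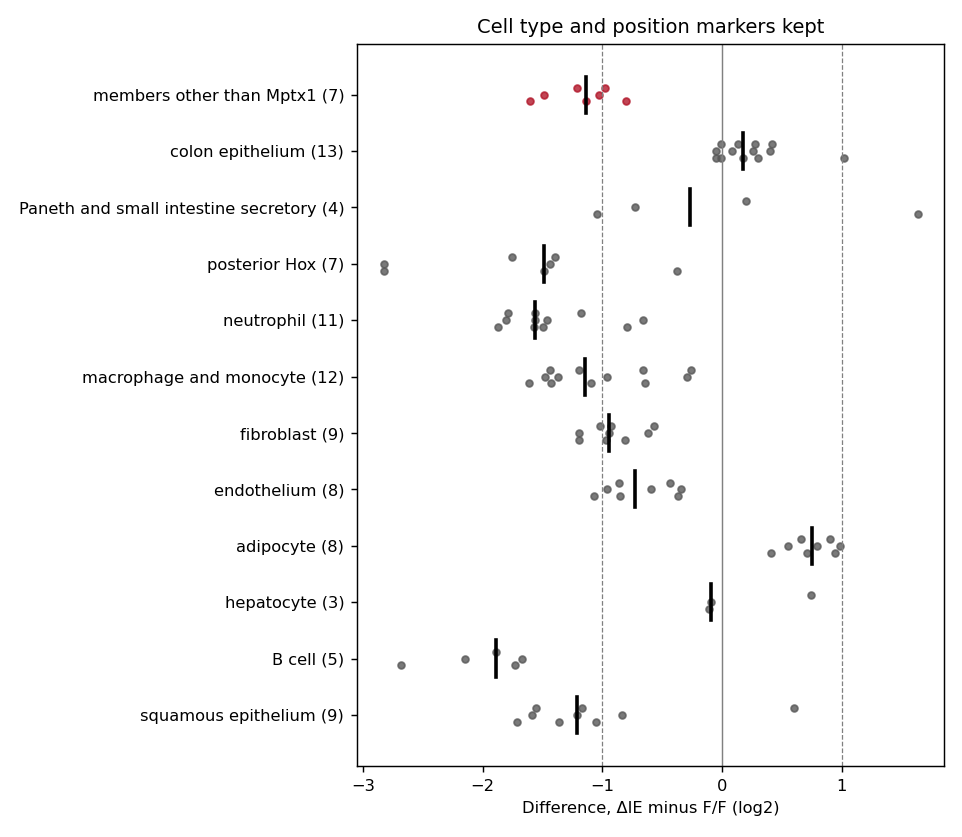
Difference between the arrays (ΔIE minus F/F, log2) of each marker gene kept, by cell type or position list, with the number of genes in brackets; black bars are medians, the solid line marks 0 and dashed lines 2-fold. Neutrophil, macrophage, fibroblast, endothelial, B cell and posterior Hox markers lie below 0 like the 7 members other than Mptx1 (red). So do 8 of the 9 squamous epithelium markers. Most colon epithelium markers lie near 0, adipocyte markers lie above it, and the Paneth and hepatocyte lists lie on both sides.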

How the data were processed

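The deposited table holds log2 expression of 45101 probe sets on 2 arrays, made by the authors with RMA in the affy package, per the submitters' processing notes; no version is stated, nor which arrays were normalized together. RMA gives no detection call, compresses differences of dim probe sets and makes the distributions of the arrays equal. Symbols came from the platform annotation: 34958 probe sets had 1 symbol, 932 several and 9211 none, and the last 2 kinds and the 64 control probe sets were left out. None of the symbols changed (0) when looked up by gene ID in the GRCm38.p6 gene table.

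Differences are ΔIE minus F/F of a gene's brightest probe set, and a fold is 2 raised to their size. With 1 array per genotype no test was run, and the number of arrays limits the precision. The members and the 24 gene lists, including those of the members' roles, were chosen with earlier results of these data known. Of the list genes, 22 had no probe set of their symbol alone and were not analysed here. Named are all members, list genes at 2-fold (up to 8 a list, else up to 3 of largest difference), the 5 genes nearest Mptx1, and genes added after their values were seen to show list members with small differences. The counting was tested on simulated data. Alternatives were averaged probe sets, leaving out _s_at and _x_at probe sets, other filters, median centring, lowess (span 0.3), and thresholds of 1.5-fold and 3-fold. Python 3.11.15, numpy 2.4.6, pandas 2.3.3, statsmodels 0.14.6 and matplotlib 3.10.9 were used.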

Additional observations from a re-analysis of the deposited data

How the results depend on the processing

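No difference of a member changed sign under any alternative in which it was kept, but most alternatives could not change it. The filters only drop genes, and a gene with 1 probe set can move only with centring, lowess or renaming. Mptx1 and Ptx3 dropped out where both arrays had to reach the filter, and Apcs and Crp entered only without a filter. Mptx1 ranged from -5.43 to -5.39, Saa3 from -1.67 to -1.56 and Hp from -1.55 to -1.45. Beyond 0.41, the 95% limit between probe sets of a gene, moved Lbp with probe sets averaged (-0.70) and Saa2 with probe sets named by accession (-1.31, chosen after seeing the data). At least 2-fold lower were 4 to 7 members over the filters, centrings and ways to choose probe sets. The number kept varied too: 4 of 6 passed 2-fold with either stricter filter, 6 of 10 without a filter and 7 of 8 with lowess. At 1.5-fold all 8 kept were lower and at 3-fold 2 were (Mptx1 and Saa3). None (0) was 2-fold higher under any of them. Over all 11899 genes kept, 631 (5.30%) were 2-fold lower and 137 (1.15%) higher. At 1.5-fold these were 1267 (10.6%) and 520 (4.37%), and at 3-fold 177 (1.49%) and 20 (0.168%). With a filter at the 75th percentile 381 of 7496 were 2-fold lower. Orm1 differed by -0.99 and Saa1 by -1.14 at the ends of their ranges away from the reported values, so their side of the 2-fold line depends on the processing. Without a filter the median of the other acute phase proteins was -0.42. With probe sets averaged Hoxd13 differed by -2.20 and Osmr by -1.01, and C1qb (-0.96), Cebpd (-0.75), Fcgr1 (-0.92), Fcgr2b (-0.77) and Trp63 (-0.72) were no longer at 2-fold, and the median of the posterior Hox list was -2.13 with both arrays above the filter and -2.82 with the filter at the 75th percentile, where that of the inducing cytokines was -1.83; the cause of these shifts was not tested beyond the number of genes or probe sets that entered. No paired analysis was possible because each genotype has 1 array. Signal near background limits Mptx1, whose ΔIE value has no firm size. It also limits every list gene whose ΔIE value lies within the range of the bacterial controls, 2.64 to 7.49 on that array.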

Other observations

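Proteins whose hepatic output falls in an acute phase response, the negative acute phase proteins, were seen for 6 of the 7 genes listed, and 2 were kept. Rbp4, the plasma retinol carrier, read 9.10 on the ΔIE array and 7.89 on the F/F array, a 2.30-fold difference upward. Ttr, the gene of transthyretin, which travels with it, read 8.34 on the ΔIE array and 10.004 on the F/F array, a 3.16-fold difference downward, and its 4 probe sets differed by -1.69 to -1.10. The remaining 4, Alb, Apoa1, Ahsg and Serpina6, were below the filter on both arrays. Of the Paneth and small intestine secretory list, 4 genes were kept and went both ways: Ang4 differed by 1.64 and Mmp7 by 0.20, while Lyz1 and Pla2g2a differed by -0.73 and -1.05.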
